A study of Mus musculus with 3 samples.

Results

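Chemokines are small secreted or membrane-bound proteins that steer the migration of leukocytes, and their receptors are G protein-coupled receptors on the cells that move. The module described here holds every row of the feature table whose symbol names a CC, CXC or CX3C chemokine or one of the matching receptors: 60 of 31053 rows, 43 of them ligands and 17 receptors. They carry 55 symbols, and the 5 symbols that occur more than once were kept apart by Ensembl identifier. The genes are described across skin cell classes and across 3 single-cell libraries of mouse dorsal skin.

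Each chemokine binds one or a few receptors, so that the ligand marks where cells are called from and the receptor marks which cells can respond. Inflammatory ligands are switched on by cytokines and by damage, largely through NF-kB and interferon-activated factors, and recruit neutrophils, monocytes or effector T cells. Homeostatic ligands are made constantly by stroma and epithelium. In skin, keratinocytes are a known source of Ccl27a, lymphatic vessels of Ccl21a, which guides dendritic cells into the lymph, and the stroma of Cxcl12.

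The 3 groups were profiled as 1 library each, all from dorsal skin digested in collagenase I, strained at 70 µm and captured with the 10x Chromium 3' kit v3.1. The knockout carried R26-CAG-CreER with both genes floxed (Yap1 fl/fl and Wwtr1 fl/fl), was 2.5 months old and received tamoxifen by gavage at 0.11 mg per g body weight, on 2 consecutive days a week for 4 weeks. Its Cre-oestrogen receptor fusion sits at the Rosa26 locus under the CAG promoter, which is active in nearly all cells, so that YAP and TAZ (the product of Wwtr1), transcriptional co-activators of the Hippo pathway, can be targeted in all skin cell types. The old control was wild-type, 24 months old and untreated. The young control (Yap1 fl/fl and Wwtr1 fl/fl) was 2.5 months old and received the same tamoxifen, with no Cre in its genotype. The design compares the knockout and the old control with the young control. Age, the floxed alleles and tamoxifen differ together between the old and the young control and cannot be told apart. How many animals stand behind a library is not stated in the labels.

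The libraries differed in quality and depth, and a group cannot be told apart from its library, so that no value can be given without it. The deposited barcodes had a median mitochondrial share of 18.6% in the knockout, 9.41% in the old control and 5.58% in the young control. Filtering and removal of likely doublets left 8655 knockout, 11108 old control and 10784 young control cells, with a median of 2083, 1783 and 4957 unique molecular identifiers (UMIs) per cell. Wwtr1 stood at 11.7 CPM (the scale is given below) over all knockout cells, against 113 in the old control and 126 in the young control, and Yap1 at 40.7, 63.0 and 77.8 CPM. Y-linked Ddx3y was at 115 CPM in the knockout and at 0 in both controls, while Xist was at 0.208, 1381 and 1686 CPM. Sex therefore differs with genotype between the knockout and the young control, and the 2 cannot be told apart. Among the cells, 50 barcodes were shared between knockout and old control, 41 between knockout and young control and 39 between old and young control. Cells were grouped into 36 clusters without the use of any chemokine or receptor gene, and 25 clusters were named by marker genes. The other 11 showed markers of several classes, or leading genes of another class, and held 78.8% of knockout, 36.1% of old control and 4.95% of young control cells. A cluster that comes mostly from 1 library may be that library and not a cell type.

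Levels are given as CPM of a class, a gene's share of all UMIs of that class in 1 library, on the counts-per-million scale. UMIs are counted near the 3' end, so that CPM do not scale with transcript length. The dendritic or Langerhans-like class was cluster 18 alone, and a cluster led by the Langerhans cell gene Cd207 stayed unnamed. Classes are given for libraries in which they held at least 50 cells. This leaves 7 classes in the knockout: fibroblast-like (188 cells), hair follicle keratinocyte-like (108), vascular endothelial-like (89), lymphatic endothelial-like (57), pericyte or smooth muscle-like (769), Schwann-like (432) and T, NK or innate lymphoid-like (74, T/NK-like below). The same classes held 399, 1332, 347, 481, 321, 527 and 295 cells in the old control and 2549, 686, 629, 538, 404, 643 and 1185 in the young control. With 1 library per group there is no replicate and no test. Brackets hold the lower and upper bound of exact 95% intervals for counting error only, which neither cover differences between animals nor make UMIs of 1 cell independent. A gene is said to have risen or fallen in a class when its mean CPM in both libraries was at least 20, its ratio at least 2 or at most 0.5, and the interval bound nearest to 1 lay beyond 1.5-fold.

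All 60 rows are accounted for as follows. Over the cells of all libraries the module took 414872 UMIs, and the 5 most abundant genes held 68.6% of them. No UMI was seen for 7 rows, between 1 and 99 UMIs for 11 and at least 100 for 42. At least 50 CPM in some class of some library was reached by 23 ligands and 10 receptors, most of which are named with values below. The remaining 20 ligand and 7 receptor rows stayed lower: both receptors for neutrophil ligands were nearly silent, Cxcr1 with 0 UMIs and Cxcr2 with 46 over all cells. Ccl20, a Ccr6 ligand of epithelia, reached 15.1 CPM in basal keratinocyte-like cells of the old control. Ccl17, a Ccr4 ligand of dendritic cells, reached 19.4 CPM in dendritic or Langerhans-like cells of the young control, and Ccl1 reached 33.3 CPM in its mast-like cells. Ccl25, a Ccr9 ligand, reached 12.5 CPM in lymphatic endothelial-like cells of the knockout, and Cxcl13, the Cxcr5 ligand, 13.1 CPM in macrophage-like cells of the young control. The receptors Ccr3, Ccr9 and Cxcr5 had 33, 253 and 10 UMIs over all cells. Ccl28 and Cxcl15 did not pass 1.08 CPM in any class. Copies of Ccl19, Ccl21 and Ccl27 on unplaced scaffolds had at most 14 UMIs, and reads of near-identical copies of Ccl21a and Ccl27a may be lost, so that both are uncertain in absolute level. Ccl27a also overlaps Il11ra1 on the other strand, and the sources used here do not state whether counting used strand.

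**Figure D1:**
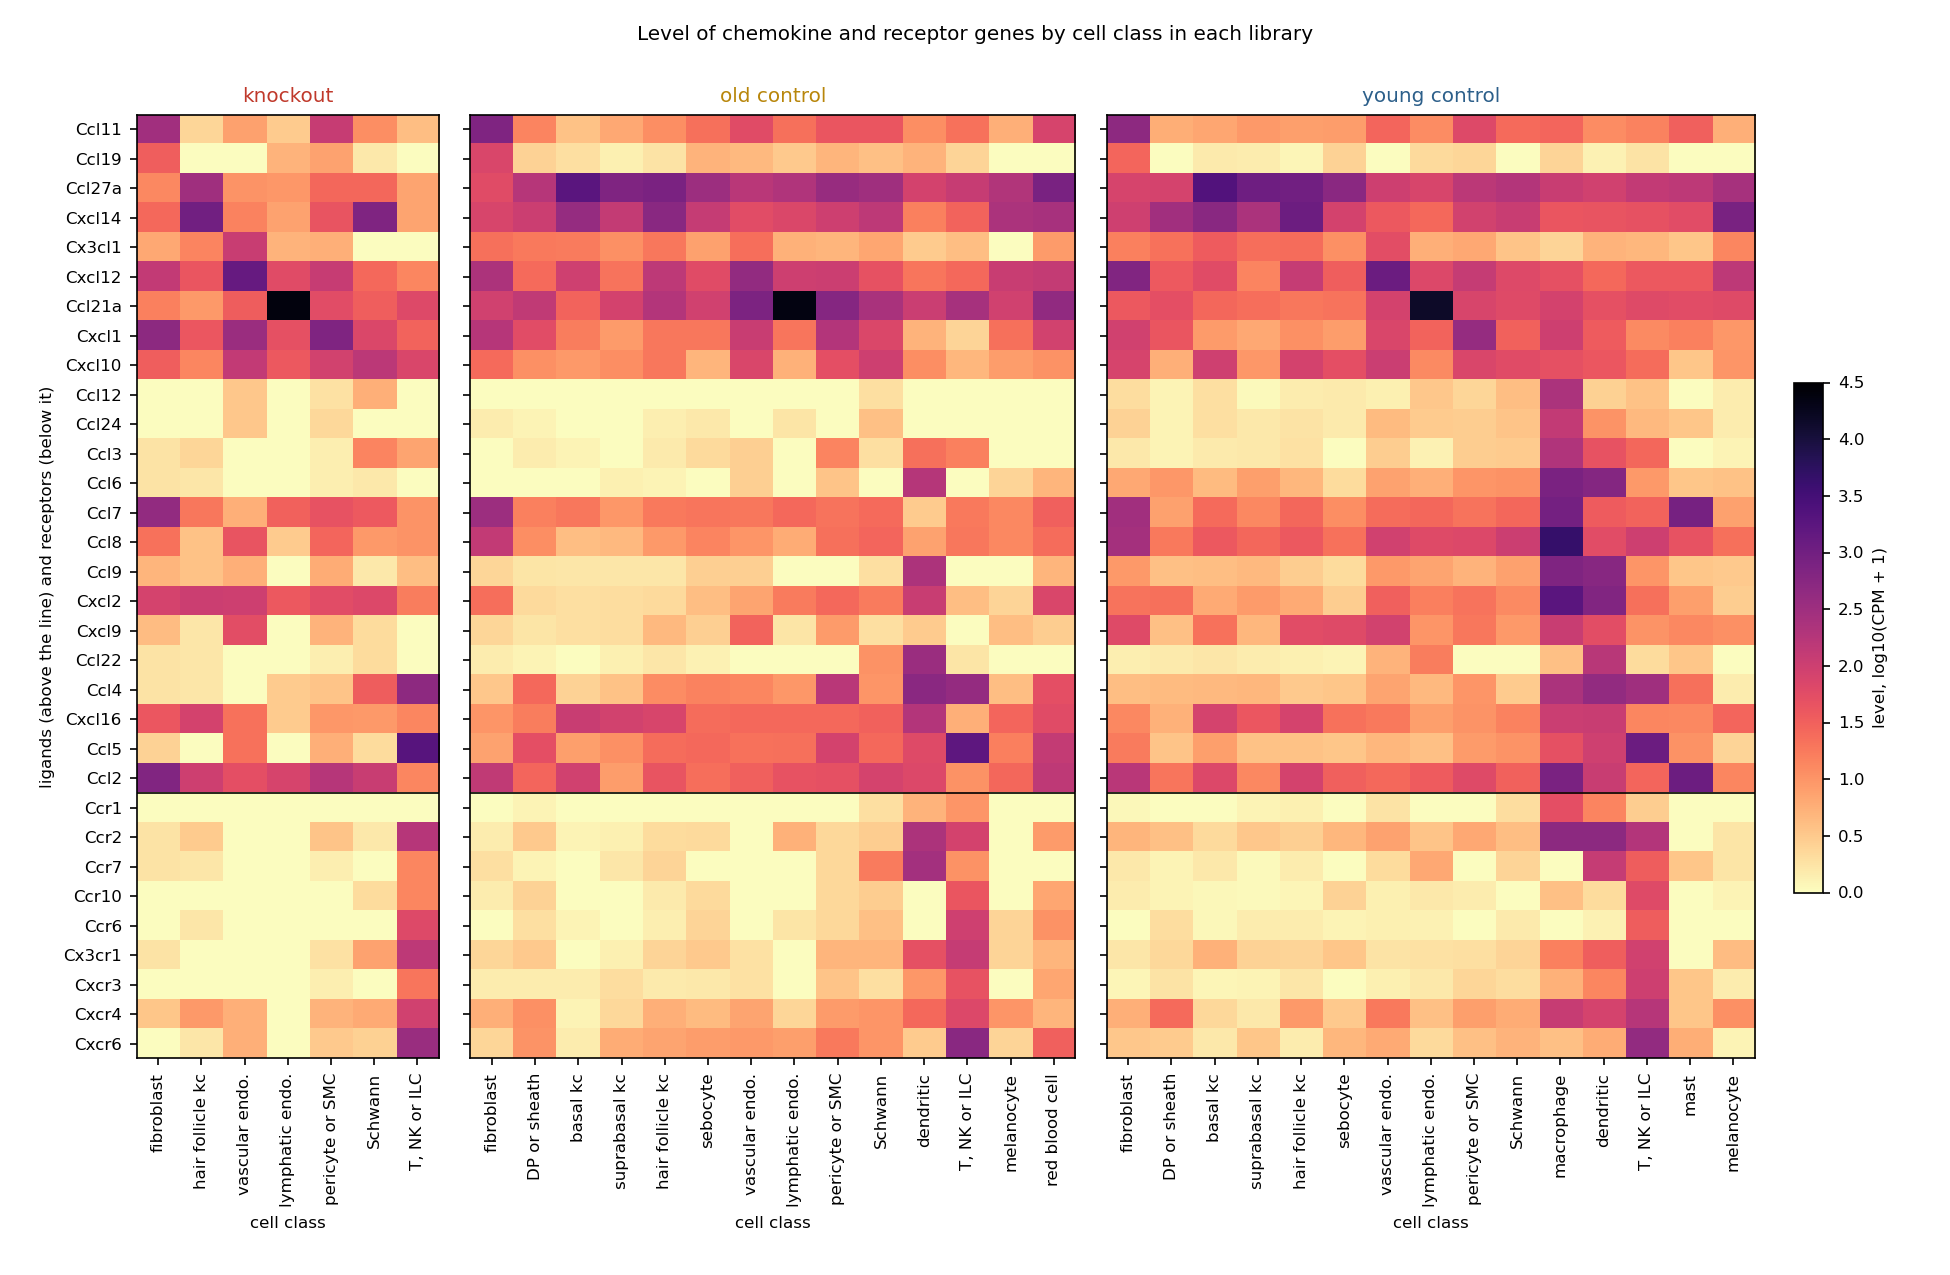
Level (log10 of CPM + 1, colour) of chemokine and receptor genes that reached 50 CPM, by cell class with at least 50 cells in the knockout, old control and young control libraries, ligands above the line and receptors below it. Ccl21a is darkest in lymphatic endothelial-like cells of every library (23942, 22622 and 14088 CPM), and the receptors are highest in the T/NK-like, dendritic-like and macrophage-like columns.

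Most genes kept the same leading class in the 3 libraries. Over the 7 classes present in all of them, 19 of 22 genes with at least 20 CPM in each library were highest in the same class throughout. The exceptions were Cxcl2, Cxcl10 and Ccl8. Ccl21a, the lymphatic ligand of Ccr7 at chr4:42772860-42773993 on the minus strand, had 23942 [23506, 24385] CPM in the knockout, 22622 [22374, 22873] in the old control and 14088 [13963, 14213] in the young control in lymphatic endothelial-like cells. No other class of at least 50 cells passed 737 CPM. Cxcl12, the stromal ligand of Cxcr4 at chr6:117168535-117181367 on the plus strand, led in vascular endothelial-like cells with 1324 [1218, 1436] CPM in the knockout, 430 [393, 469.9] in the old control and 1148 [1107, 1189.5] in the young control. Fibroblast-like cells were next of the 7 shared classes, with 128 CPM in the knockout, 223 in the old control and 666 in the young control. Gene positions are those of mm10.

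The epithelial ligands were those of keratinocytes. Ccl27a, a keratinocyte ligand of Ccr10 at chr4:41769467-41774247 on the minus strand, reached 1812 CPM in the old control and 2219 in the young control in basal keratinocyte-like cells. In hair follicle keratinocyte-like cells it had 311 CPM in the knockout, 774 in the old control and 1006 in the young control. Cxcl14, a homeostatic ligand of epithelia and stroma at chr13:56288643-56296551 on the minus strand, was highest of the shared classes in hair follicle keratinocyte-like cells, with 989 [939, 1041] CPM in the knockout, 546 [529, 563] in the old control and 1114 [1092, 1136] in the young control. Cxcl16, a membrane-bound ligand of Cxcr6, had 83.7 CPM in the knockout, 73.9 in the old control and 81.1 in the young control there. In basal keratinocyte-like cells it had 111 CPM in the old control and 78.9 in the young control. Cx3cl1, the membrane-bound ligand of Cx3cr1, was highest in vascular endothelial-like cells with 109 [80.6, 145] CPM in the knockout, 22.1 [14.3, 32.6] in the old control and 53.4 [44.9, 63.0] in the young control.

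Of the attractants of neutrophils, monocytes and eosinophils, Cxcl1, Ccl2, Ccl7 and Ccl11 were highest in stromal classes among those shared by all libraries. The neutrophil attractant Cxcl2 had no constant class: it was highest in hair follicle keratinocyte-like cells of the knockout, through 1 cell, in pericyte or smooth muscle-like cells of the old control and in vascular endothelial-like cells of the young control. Cxcl1, a neutrophil attractant that signals through Cxcr2, was highest in pericyte or smooth muscle-like cells of every library, with 698 [665, 733] CPM in the knockout, 185 [156, 218] in the old control and 383 [357, 410.3] in the young control. Ccl2, a monocyte attractant that signals through Ccr2, was highest of the shared classes in fibroblast-like cells, with 662 [618, 709] CPM in the knockout, 133 [118, 149] in the old control and 163 [156, 169] in the young control. Ccl7, its neighbour and also a Ccr2 ligand, had 421 [386, 459] CPM in the knockout, 336 [312, 361] in the old control and 293 [284, 302] in the young control in fibroblast-like cells. The eosinophil attractant Ccl11 (eotaxin) had 298 [269, 329.6] CPM in the knockout, 686 [652, 722] in the old control and 485 [474, 497] in the young control there. Ccl2, Ccl7, Ccl11, Ccl12 and Ccl8 lie in this order on chromosome 11, between 82035571 and 82116799 (mm10). In the young control, mast-like cells (117 cells) held 1131 CPM of Ccl2 and 878 CPM of Ccl7.

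Macrophage or monocyte-like cells were numerous enough for the class level in the young control alone (185 cells). There Ccl8, which in mice is a ligand of Ccr8, stood at 4457 [4300.3, 4618] CPM and Cxcl2, a second Cxcr2 ligand, at 1807 [1708, 1910.5] CPM. The Ccr1 ligands Ccl6 and Ccl9 stood at 776 and 687 CPM, the Ccr2 ligand Ccl12 at 232 CPM, the inflammatory ligand Ccl3 at 204 CPM and the eotaxin Ccl24 at 129.8 CPM. Of the classes shared by all libraries, T/NK-like cells led for Ccl5, a T-cell and monocyte attractant, with 2006 [1855, 2167] CPM in the knockout, 1620.3 [1553, 1690.2] in the old control and 1152 [1118, 1188] in the young control. They also led for Ccl4, an attractant of the same kind of cells, with 469 CPM in the knockout, 402 in the old control and 303 in the young control, while dendritic or Langerhans-like cells had 517 CPM in the old control and 425 in the young control. Ccl22, a Ccr4 ligand of dendritic cells, had 339 CPM in the old control and 165 in the young control in dendritic or Langerhans-like cells.

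The upstream sequences of the neutrophil ligands and of the Cxcr3 ligands are shown because in knockout fibroblast-like cells Cxcl1 and Cxcl2 passed as higher and Cxcl9 and Cxcl10 as lower. Other ligands moved in that class as well, and with its clusters weighted as in the young control Cxcl2 turned to a ratio of 0.650, and Cxcl1 and Cxcl10 no longer reached the size of the rule. Cxcl1 (chr5:90891241-90893115 on the plus strand) and Cxcl2 (chr5:90903871-90905938 on the plus strand) are neighbours on chromosome 5, as are Cxcl9 (chr5:92321347-92328079 on the minus strand) and Cxcl10 (chr5:92346638-92348889 on the minus strand), the interferon-inducible ligands of Cxcr3 (mm10, GENCODE M21). The 250 bases before each start, taken from RefSeq on GRCm38.p6, whose starts can differ from those of GENCODE, lie at chr5:90890995-90891244 on the plus strand, chr5:90903649-90903898 on the plus strand, chr5:92328080-92328329 on the minus strand and chr5:92348890-92349139 on the minus strand. Capitals mark matches on either strand to an NF-kB motif, GGGNNTTNCC, or, first in the window of Cxcl10, to an interferon-response motif, GAAANNGAAA; matches shown do not overlap.
Cxcl1: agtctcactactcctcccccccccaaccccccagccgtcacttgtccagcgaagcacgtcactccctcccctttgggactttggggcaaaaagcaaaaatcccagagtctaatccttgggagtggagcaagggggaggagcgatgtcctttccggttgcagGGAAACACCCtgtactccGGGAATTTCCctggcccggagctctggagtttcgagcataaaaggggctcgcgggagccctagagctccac
Cxcl2: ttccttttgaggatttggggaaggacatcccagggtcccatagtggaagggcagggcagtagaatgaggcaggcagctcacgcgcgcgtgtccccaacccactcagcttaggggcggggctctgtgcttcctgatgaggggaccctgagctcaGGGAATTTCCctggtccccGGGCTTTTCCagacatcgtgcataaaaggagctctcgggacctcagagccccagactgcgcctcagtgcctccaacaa
Cxcl9: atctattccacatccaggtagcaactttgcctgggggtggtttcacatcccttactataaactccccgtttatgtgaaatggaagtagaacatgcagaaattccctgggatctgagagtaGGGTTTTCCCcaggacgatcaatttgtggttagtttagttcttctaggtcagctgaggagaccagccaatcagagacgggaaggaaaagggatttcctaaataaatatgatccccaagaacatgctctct
Cxcl10: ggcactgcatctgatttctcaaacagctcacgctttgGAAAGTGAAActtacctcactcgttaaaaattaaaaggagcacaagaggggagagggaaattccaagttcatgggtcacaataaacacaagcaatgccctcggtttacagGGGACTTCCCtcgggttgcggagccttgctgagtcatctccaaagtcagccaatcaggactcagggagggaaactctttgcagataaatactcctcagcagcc
The NF-kB motif begins 89 and 71 bases before the start of Cxcl1, 97 and 78 before Cxcl2, 130 before Cxcl9 and 103 before Cxcl10. The interferon-response motif begins 213 bases before the start of Cxcl10. Windows were found for 39 of the 55 symbols, 46 windows in all. The NF-kB motif was present for 10 symbols (also Cxcl3, Ccl20, Ccl9, Ccl19, Ccr3 and Ccr6) and the interferon-response motif for 3 (also Ccl19 and Cxcl14). Of 32851 windows of the same length before all starts, 4.11% held the first motif and 2.98% the second. A match describes the letters only.

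In the knockout, the neutrophil ligand Cxcl1 and the monocyte ligand Ccl2 rose in several stromal classes, while Ccl8 fell in 6 and Ccl27a in 7 of 7 classes and the Cxcr3 ligands fell in fibroblast-like and hair follicle keratinocyte-like cells. Over the 7 classes, 19 gene-by-class entries of the module rose and 25 fell. Of the entries tested over all genes, 2.63% rose and 4.30% fell. The genes tested in a class are those that reached the mean of 20 CPM, so that a low gene could enter only where it was high, and these counts support nothing by themselves. In fibroblast-like cells 11 of 14 tested genes moved (background 9.67% of all genes tested), in hair follicle keratinocyte-like cells 7 of 11 (6.50%), in vascular endothelial-like cells 3 of 11 (4.14%) and in lymphatic endothelial-like cells 3 of 9 (4.35%). In pericyte or smooth muscle-like cells 5 of 11 moved (9.21%), in Schwann-like cells 8 of 10 (7.94%) and in T/NK-like cells 7 of 17 (6.47%). The median log2 ratio of all genes was between -0.14 (hair follicle keratinocyte-like) and 0.18 (fibroblast-like), so that no ratio that passed the rule changes side when set against it.

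**Figure D2:**
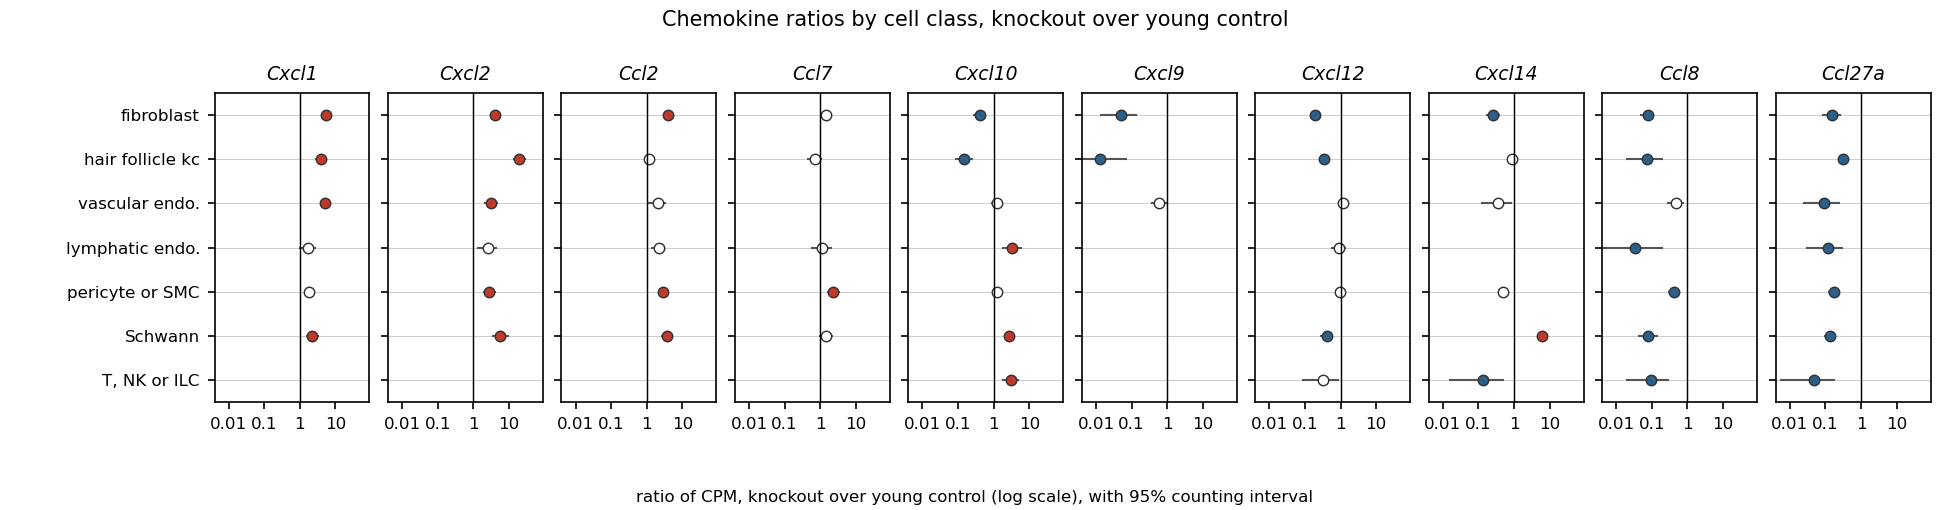
Ratio of CPM, knockout over young control (log axis), for 10 ligands in the 7 cell classes, with 95% counting intervals as lines; red points rose, blue points fell, open points did not pass the size rule, and no point is drawn where the mean was under 20 CPM. Cxcl1 and Cxcl2 lie right of 1 in the classes drawn, Ccl8 and Ccl27a left of 1, and Cxcl14 lies far right in Schwann-like cells (6.24).

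Cxcl1 rose in 4 classes. In fibroblast-like cells it had 491 [453, 531] CPM in the knockout against 90.4 [85.6, 95.3] CPM in the young control, a ratio of 5.43 [4.93, 5.98]. In vascular endothelial-like cells it had 349 against 70.6 CPM (4.94 [3.96, 6.15]), in hair follicle keratinocyte-like cells 39.1 against 9.90 CPM (3.95 [2.78, 5.57]) and in Schwann-like cells 68.2 against 30.1 CPM (2.26 [1.64, 3.15]). The knockout was the higher library in each of these classes. The share of cells with a UMI of Cxcl1 was 29.3% [22.9, 36.3] in knockout and 17.1% [15.7, 18.7] in young control fibroblast-like cells, or 18.1% and 7.50% after each cell was thinned to 1500 UMIs. In T/NK-like cells, which are not a known source, the share was 10.8% [4.78, 20.2] in the knockout and 3.38% [2.42, 4.57] in the young control (6.76% and 2.00% thinned). With free RNA estimated as the lowest class level of a library and subtracted, the fibroblast-like and vascular ratios were 5.47 and 4.95 and passed, while the hair follicle (2.60) and Schwann-like ratios (1.65) did not. The hair follicle call was also lost without the cell with most UMIs in each library (3.29, at a mean under 20 CPM), and the Schwann-like call with cells of at least 1000 genes and at most 10% mitochondrial UMIs (1.98). The median cell held 6268 and 5597 UMIs in knockout and young control fibroblast-like cells, and 4072 and 2878 in T/NK-like cells of the same libraries.

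The fibroblast-like ratio of Cxcl1 depended on which fibroblast clusters each library held. Cluster 30, led by Apod and Sfrp5, had the highest Cxcl1, with 1959 CPM in the knockout (42 cells) and 1102 CPM in the young control (163 cells), a ratio of 1.78 [1.58, 2.00] that did not pass, and made up more of the knockout class. In cluster 3, led by Col1a2 and Col1a1, the levels were 25.2 and 24.1 CPM (71 and 1329 cells), and in cluster 23, led by Coch and Fmod, they were 74.9 and 15.3 CPM (63 and 267 cells). With the clusters weighted as in the young control, the fibroblast-like ratio was 1.85. Pericyte or smooth muscle-like cells went the other way: the class ratio was 1.82 [1.67, 1.99], which did not pass the rule, while each of its clusters did. Cluster 21, led by Rgs5 and Myh11, had 2965 [2808, 3128] CPM in the knockout (84 cells) and 576 [536, 617] CPM in the young control (325 cells), a ratio of 5.15 [4.72, 5.63]. In cluster 14, smooth muscle-like and led by Myh11 and Acta2, the levels were 162 and 12.4 CPM (685 and 79 cells). The vascular ratio was 4.93 with the same weights.

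Cxcl2 passed the rule in 5 classes, but in several of them few cells carried it. In pericyte or smooth muscle-like cells it had 55.6 CPM in the knockout against 19.8 CPM in the young control (2.80 [1.97, 4.07]), and in vascular endothelial-like cells 98.0 against 31.3 CPM (3.13 [2.11, 4.58]). The Schwann-like ratio was 5.61 [3.56, 9.20], with 62 of 114 knockout UMIs in 1 cell, and was 2.99 without the cell with most UMIs in each library. The hair follicle ratio of 19.6 [14.0, 27.8] rested on 1 cell that held 142 of 149 knockout UMIs, and was 1.13 without the top cell of each library. The fibroblast-like ratio of 4.04 [3.18, 5.08] turned to 0.650 with clusters weighted as in the young control, while the pericyte ratio was 5.77 with those weights. Thinned to 1500 UMIs, the pericyte ratio was 1.77 and the Schwann-like ratio 2.99 [1.21, 8.07], and neither passed. Of the other Cxcr2 ligands, Cxcl5 stayed under 20 CPM but had 106 of its 115 UMIs in the knockout, where it reached 11.1 CPM in fibroblast-like cells, and Cxcl3 had 47 of its 74 UMIs there.

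Ccl2 rose in fibroblast-like, pericyte or smooth muscle-like and Schwann-like cells of the knockout. Fibroblast-like cells had 662 CPM in the knockout against 163 CPM in the young control, a ratio of 4.07 [3.75, 4.40], or 5.15 with the young control's cluster weights. That weighted value counts cluster 16, with only 12 knockout cells, at the share of its 790 young control cells. Pericyte or smooth muscle-like cells had 170.1 against 59.4 CPM (2.86 [2.34, 3.52]; 6.38 weighted; 1.97 and under the rule when thinned to 1500 UMIs), and Schwann-like cells 109.8 against 30.1 CPM (3.64 [2.71, 4.97]). Within clusters, the knockout was higher in fibroblast clusters 3 (407 against 121 CPM) and 30 (1504 against 746 CPM) and in pericyte cluster 21 (532 against 83.9 CPM). The share of fibroblast-like cells with a UMI of Ccl2 was 37.2% [30.3, 44.6] in the knockout and 24.4% [22.7, 26.1] in the young control, and 24.2% and 11.6% thinned. Ccl7 rose in pericyte or smooth muscle-like cells, with 45.0 against 19.3 CPM (2.32 [1.61, 3.42]). That call was lost without the cell with most UMIs in each library (2.08), with doublets kept (1.83), with the stricter cells and with thinning. In fibroblast-like cells as a whole its ratio was 1.44 [1.31, 1.57], and in cluster 3 it rose to 647 CPM against 267 CPM. Ccl11 rose within pericyte cluster 21, with 408 CPM in the knockout and 81.0 CPM in the young control, a ratio of 5.04 [3.96, 6.43]. In fibroblast-like cells its ratio was 0.614 [0.552, 0.681].

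**Figure D3:**
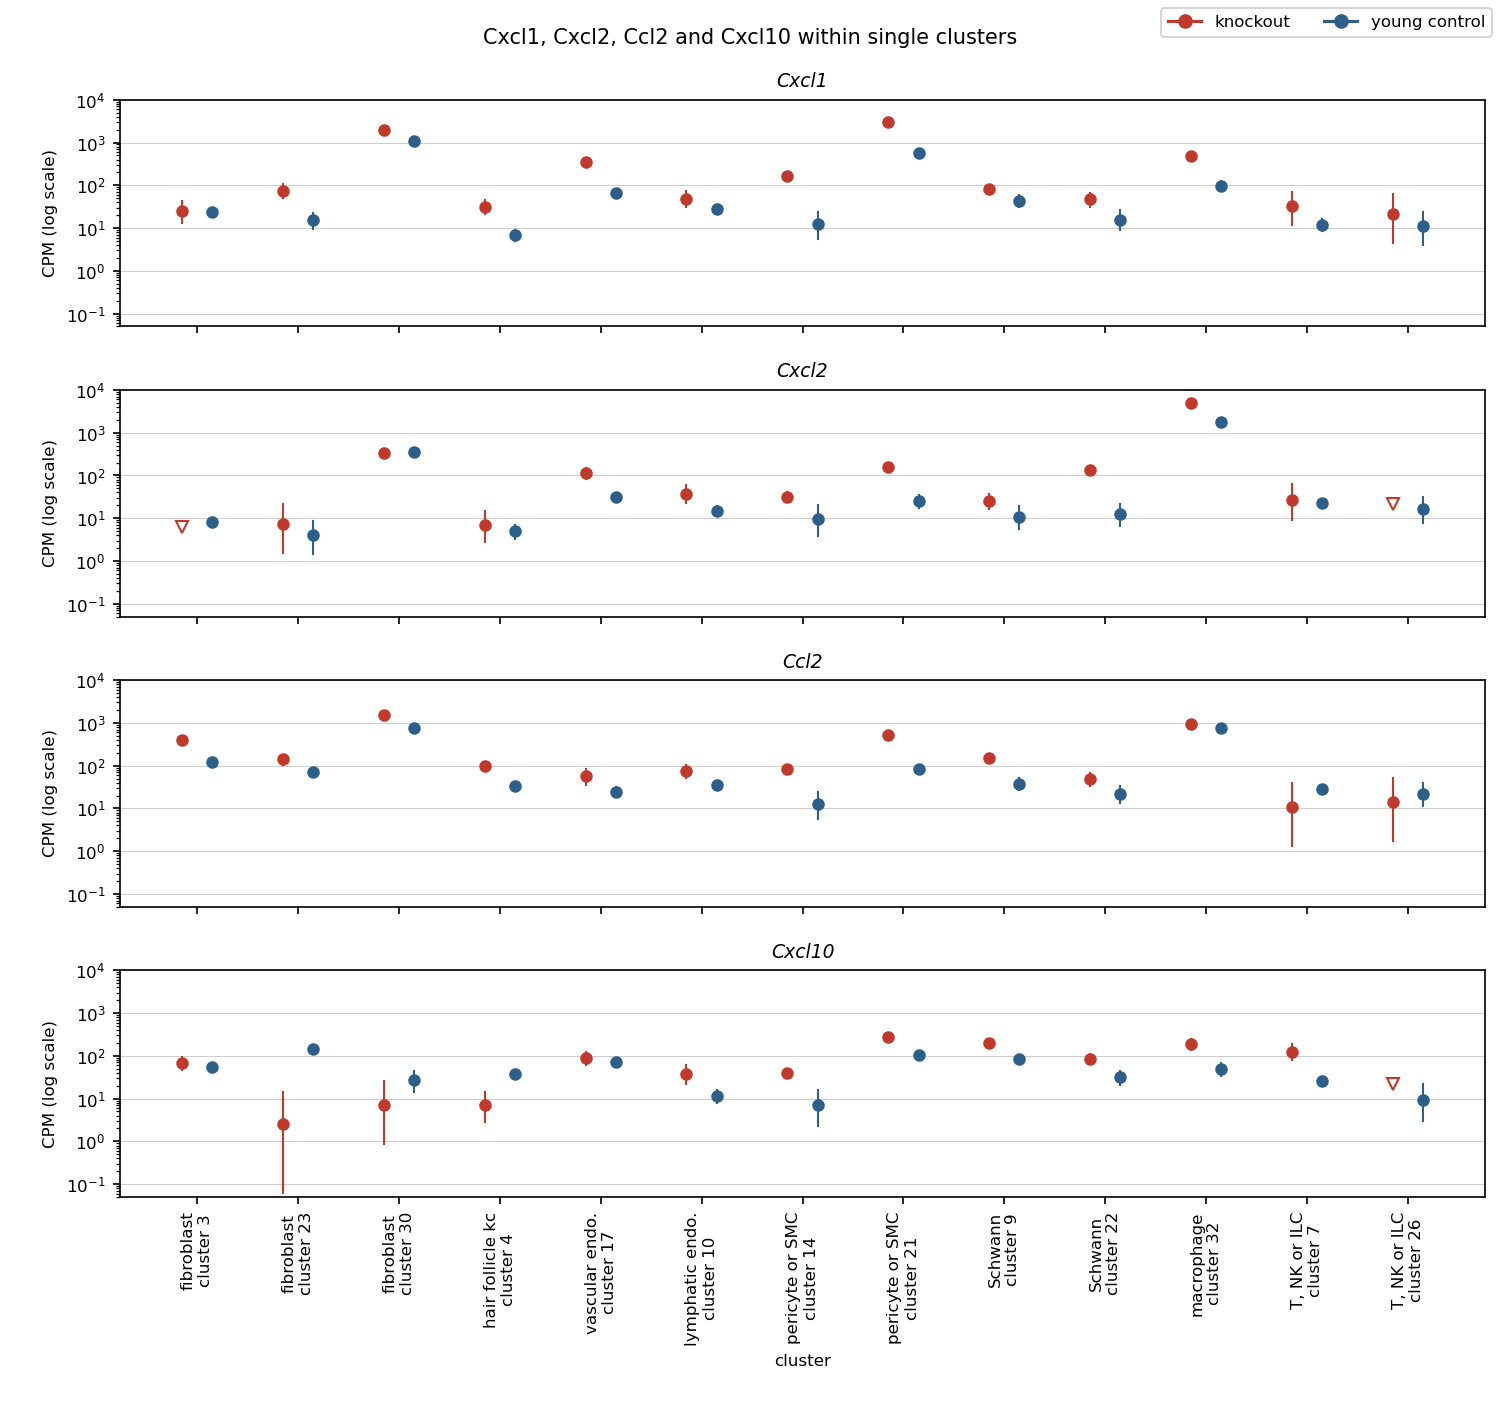
CPM (log axis) of Cxcl1, Cxcl2, Ccl2 and Cxcl10 within single clusters that held at least 30 cells in both the knockout (red) and the young control (blue), with 95% counting intervals; triangles mark the limit of 3 UMIs where none was counted. Cxcl1 is higher in the knockout in both pericyte or smooth muscle clusters and level in fibroblast cluster 3, and Cxcl10 lies below the young control in fibroblast cluster 23 and above it in both Schwann clusters.

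The Cxcr3 ligands moved in different directions in different classes. Cxcl9 fell to 3.17 CPM in knockout fibroblast-like cells against 60.8 CPM in the young control (0.0521 [0.0142, 0.134]). In hair follicle keratinocyte-like cells it had 0.686 against 54.5 CPM (0.0126 [0.000318, 0.0705]). There 1 young control cell held 328 of 490 UMIs, and without the top cell of each library the ratio was 0.114 at a mean under 20 CPM, so that the call was lost. Cxcl9 was highest in vascular endothelial-like cells, where its levels of 52.4 and 88.1 CPM gave a ratio of 0.595 [0.370, 0.914], which did not pass. Cxcl10 fell in fibroblast-like cells (31.7 against 77.9 CPM, ratio 0.407 [0.289, 0.557]) and in hair follicle keratinocyte-like cells (12.4 against 81.8 CPM, ratio 0.151 [0.0890, 0.240]). With cluster weights of the young control the fibroblast-like ratio was 0.668, and with doublets kept 0.552. In Schwann-like cells Cxcl10 rose, with 155 against 57.7 CPM (2.68 [2.15, 3.37]), and 80 of 268 knockout UMIs lay in 1 cell; thinned to 1500 UMIs the ratio was 1.44 and did not pass. It also passed the rule as higher in T/NK-like cells (3.08 [1.86, 4.94]) and lymphatic endothelial-like cells (3.33 [1.79, 5.95]), on 23 and 18 knockout UMIs. The ratios were 1.93 and 1.69 without the cell with most UMIs in each library, and neither passed.

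The homeostatic ligands changed by class. Cxcl14 rose in knockout Schwann-like cells, with 679 [641, 719] CPM against 109 [94.7, 124] CPM in the young control, a ratio of 6.24 [5.39, 7.26]. Both Schwann clusters showed it: cluster 9, with Kcna1 and Kcna2 among its leading genes, had 691 against 133 CPM, and cluster 22, with Mal and Ncmap among them, had 660.1 against 83.8 CPM. The share of Schwann-like cells with a UMI was 45.8% [41.1, 50.7] in the knockout and 23.3% [20.1, 26.8] in the young control (38.2% and 15.8% thinned). In T/NK-like cells, which are not a known source, it was 2.70% [0.329, 9.42] and 12.4% [10.6, 14.4]. In fibroblast-like cells Cxcl14 fell, with 24.6 against 94.2 CPM (0.261 [0.176, 0.372]). The hair follicle ratio, in the class where the gene is highest, was 0.888 [0.839, 0.938]. Cxcl12 fell to 128 CPM in knockout fibroblast-like cells against 666 CPM (0.193 [0.164, 0.225]), and the ratio was 0.510 with the cluster weights of the young control. In vascular endothelial-like cells its ratio was 1.15 [1.05, 1.26]. From lower levels Cxcl12 also fell in hair follicle keratinocyte-like (0.343 [0.259, 0.446]) and Schwann-like cells (0.408 [0.282, 0.581]). Neither held under every alternative: thinned to 1500 UMIs the ratios were 0.774 and 0.583, and with every cluster given its best class the Schwann-like ratio turned to 2.53 and passed as higher.

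Among the membrane-bound ligands, Cxcl16 rose in knockout fibroblast-like cells, with 39.6 against 12.3 CPM (3.23 [2.31, 4.44]). In cluster 3 the levels were 60.9 and 8.80 CPM. Without clusters mostly of 1 library the ratio was 1.75, at a mean under 20 CPM, and did not pass. Cx3cl1 in vascular endothelial-like cells had 109 against 53.4 CPM, a ratio of 2.05 [1.44, 2.86] that missed the rule by its interval, and rose within vascular cluster 17, led by Fabp4 and Cd36 (123 against 52.9 CPM, ratio 2.32 [1.62, 3.28]).

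Ccl8 and Ccl27a fell in 6 and 7 of the 7 classes, and both gave at least 37.6 CPM in each of these classes in the young control. Ccl8 did not pass the rule in vascular endothelial-like cells, where it was highest of the 7 classes in the knockout. Ccl8 had 20.6 CPM in knockout fibroblast-like cells against 274 CPM in the young control (0.0752 [0.0490, 0.110]). In T/NK-like cells it had 9.32 against 97.5 CPM, and 4.05% of knockout and 24.0% of young control T/NK-like cells held a UMI of it. After free RNA was subtracted 4 of the 6 falls still passed, among them the fibroblast-like one (0.0709). The hair follicle ratio (0.0335) then lay at a mean under 20 CPM and the pericyte ratio was 0.501. The pericyte call was also lost with thinning (0.774) and with every cluster given its best class (0.646), and the hair follicle call without the top cell (0.0826, again at a mean under 20 CPM). Macrophage-like cells, where Ccl8 is highest, had 2956 CPM in the knockout (38 cells) and 4457 CPM in the young control (185 cells). Ccl27a had 311 [283, 341] against 1006 [985, 1027] CPM in hair follicle keratinocyte-like cells (0.309 [0.281, 0.340], or 0.537 with the young control's cluster weights). That weighted value is for cluster 4 alone, since cluster 19 held 8 knockout cells and was left out. Elsewhere the ratios of Ccl27a lay between 0.0473 (T/NK-like) and 0.172 (pericyte or smooth muscle-like). Basal keratinocyte-like cells, the highest class for Ccl27a, numbered 12 in the knockout and 1480 in the young control. Their part in these falls was not tested. With free RNA subtracted the fibroblast-like and lymphatic ratios of Ccl27a were 1.06 and 2.40, and these calls and the vascular one were lost. With every cluster given its best class the vascular and pericyte ratios were 0.573 and 0.595 and did not pass. Ccl21a fell in knockout fibroblast-like cells (14.3 against 38.7 CPM, ratio 0.369 [0.217, 0.588]), far below its level in lymphatic endothelial-like cells, where the ratio was 1.70 [1.67, 1.73]. The fibroblast-like call was lost with thinning (0.677) and with free RNA subtracted (0.307, at a mean under 20 CPM).

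T/NK-like cells of the knockout held 74 cells, 39 of them in cluster 7 (led by Icos and Gzmc) and 35 in cluster 26 (led by Cd3g and Trdc), against 1012 and 173 in the young control. Ccl5 had 2006 against 1152 CPM, a ratio of 1.74 [1.60, 1.89] below the rule. Within cluster 7 it rose to 3524 CPM against 1349.8 CPM (2.61 [2.40, 2.84]), and Ccl4 to 824 CPM against 349 CPM (2.36 [1.98, 2.80]). Cxcr3, the receptor of Cxcl9 and Cxcl10, fell to 18.6 CPM against 96.7 CPM (0.193 [0.0702, 0.424]), and Ccr10, the receptor of Ccl27a, to 12.4 against 59.9 CPM (0.207 [0.0560, 0.538]), on 6 and 4 knockout UMIs. With cluster weights of the young control the ratios of Cxcr3 and Ccr10 were 0.289 and 0.310, and thinned to 1500 UMIs neither fall passed. Within cluster 7 Ccr6, the receptor of Ccl20, rose to 109 CPM against 39.0 CPM. Cxcl14 passed as lower from a low level, with 6.21 against 46.3 CPM (0.134 [0.0161, 0.492]), on 2 knockout UMIs. Its ratio was 0.444 with free RNA subtracted, 0.571 with thinning and 0.971 with every cluster given its best class, and passed under none of these.

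Macrophage-like cells (cluster 32, led by Retnla, Lyz2 and C1qa) held 38 cells in the knockout, below the class limit, and are compared within the cluster. Cxcl2 rose to 4857 CPM against 1807 CPM (2.69 [2.48, 2.91]), Ccl4 to 2144 against 228 CPM (9.42 [7.88, 11.3]), Ccl3 to 535 against 204 CPM and Ccl7 to 1871 against 906 CPM. The knockout library was higher for these inflammatory ligands and for Cxcl1 (479 against 97.7 CPM). Ccl6 fell to 146 against 776 CPM (0.188 [0.132, 0.261]), Ccl9 to 254 against 687 CPM, and the monocyte receptor Ccr2 to 138 against 506 CPM (0.274 [0.189, 0.385]). Cx3cr1, the fractalkine receptor of tissue macrophages and monocytes, rose to 93.5 against 14.6 CPM, on 25 and 10 UMIs. Ccr1 had 0 UMIs in the knockout, against 51.0 CPM in the young control.

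Most knockout cells lay in unnamed clusters of that library, and these carried neutrophil ligands too. No comparison with the young control is possible there, since each held fewer than 30 of its cells. Cluster 11 (1060 knockout cells, with Thbs4 and Mal among its leading genes) had 1074 CPM of Cxcl1, 988 CPM of Ccl2 and 628 CPM of Cxcl2. In cluster 2 (1722 knockout cells, led by the endothelial selectins Selp and Sele), Cxcl10 stood at 865 CPM and Cxcl1 at 541 CPM. Cluster 6 (1236 knockout cells, led by Myh11 and Ptprb) had 731 CPM of Ccl21a and 497 CPM of Cxcl1. In cluster 8 (1176 knockout cells, led by Crabp1) Cxcl1 had 149.9 CPM, and in cluster 12 (1066 knockout cells, led by the fatty acid elongase Elovl6) Cxcl14 had 288 CPM. Median mitochondrial shares there lay between 9.64% and 10.9%, against 5.05% in fibroblast cluster 3. The named pericyte or smooth muscle cluster 14, with 685 knockout cells, had 10.7%, so that this share did not set them apart from every named cluster. The unnamed clusters showed markers of several classes. The part of that mixture in the levels was not tested.

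Genes of the NF-kB and interferon responses, pathways known to induce chemokines, were counted as lists. Of 15 NF-kB response genes, 13 were tested in vascular endothelial-like cells, where 6 rose in the knockout and 0 fell, among them Il6, Vcam1, Icam1 and Nfkbia. Their median log2 ratio was 0.88, beside -0.12 over all genes. In fibroblast-like cells 2 of 12 tested rose (Icam1 and Sod2, median 0.81 beside 0.18), in lymphatic endothelial-like cells 3 of 13 (Vcam1, Csf3 and Il6, median 0.07 beside -0.10), in Schwann-like cells 1 of 11 rose (Il6) and 1 fell (Birc3), and in pericyte or smooth muscle-like cells 0 of 12 rose and 2 fell (Zc3h12a and Nfkbiz). Weighted by the clusters of the young control, the vascular ratios of Il6, Vcam1, Icam1 and Nfkbia were 4.97, 5.47, 4.03 and 2.08, the fibroblast-like ratio of Icam1 was 1.96, and the pericyte ratios of Zc3h12a and Nfkbiz were 0.631 and 1.03. With free RNA subtracted Sod2 in fibroblast-like cells and Il6 and Birc3 in Schwann-like cells no longer passed. None of 8 tested in hair follicle keratinocyte-like and of 11 in T/NK-like cells passed in either direction. Of 12 interferon response genes, 1 of 9 tested rose in fibroblast-like cells (Isg15) and 1 fell (Gbp2), while in lymphatic endothelial-like cells 3 of 9 rose (Isg15, Ifit1 and Rsad2) and 2 fell (Irf1 and Gbp2). In Schwann-like cells, where Cxcl10 rose, 0 of 9 interferon response genes rose and 2 fell (Gbp2 and Gbp3).

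In the old control, Ccl8, Cxcl9 and Cxcl10 fell across many classes, Cxcl12 fell in its main sources, and Ccl21a rose in 10 of 13 classes. The falls of Cxcl12 and several rises of Ccl21a did not hold under every alternative given below. Over the 13 classes compared, 25 gene-by-class entries of the module rose and 38 fell. Of the entries tested over all genes, 2.48% rose and 2.85% fell. Here too a low gene could enter only where it was high, so that these counts support nothing by themselves. By class, 6 of 13 tested genes moved in fibroblast-like cells (background 3.55%), 4 of 7 in dermal papilla or sheath-like (4.63%), 3 of 10 in basal keratinocyte-like (2.48%), 2 of 4 in suprabasal keratinocyte-like (2.61%), 5 of 11 in hair follicle keratinocyte-like (2.56%) and 3 of 8 in sebocyte-like cells (6.19%). In vascular endothelial-like cells 6 of 13 moved (9.25%), in lymphatic endothelial-like 3 of 8 (4.89%), in pericyte or smooth muscle-like 6 of 12 (8.49%) and in Schwann-like cells 4 of 11 (8.04%). In dendritic or Langerhans-like cells 12 of 21 moved (3.61%), in T/NK-like cells 8 of 17 (7.19%) and in melanocyte-like cells 1 of 5 (4.37%). The additional classes held 1143 (dermal papilla or sheath-like), 410 (basal), 414 (suprabasal), 844 (sebocyte-like), 75 (dendritic or Langerhans-like) and 113 (melanocyte-like) cells in the old control, and 204, 1480, 586, 190, 546 and 257 in the young control. Both comparisons share the young control library. The median log2 ratio of all genes was between -0.15 and 0.04.

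**Figure D4:**
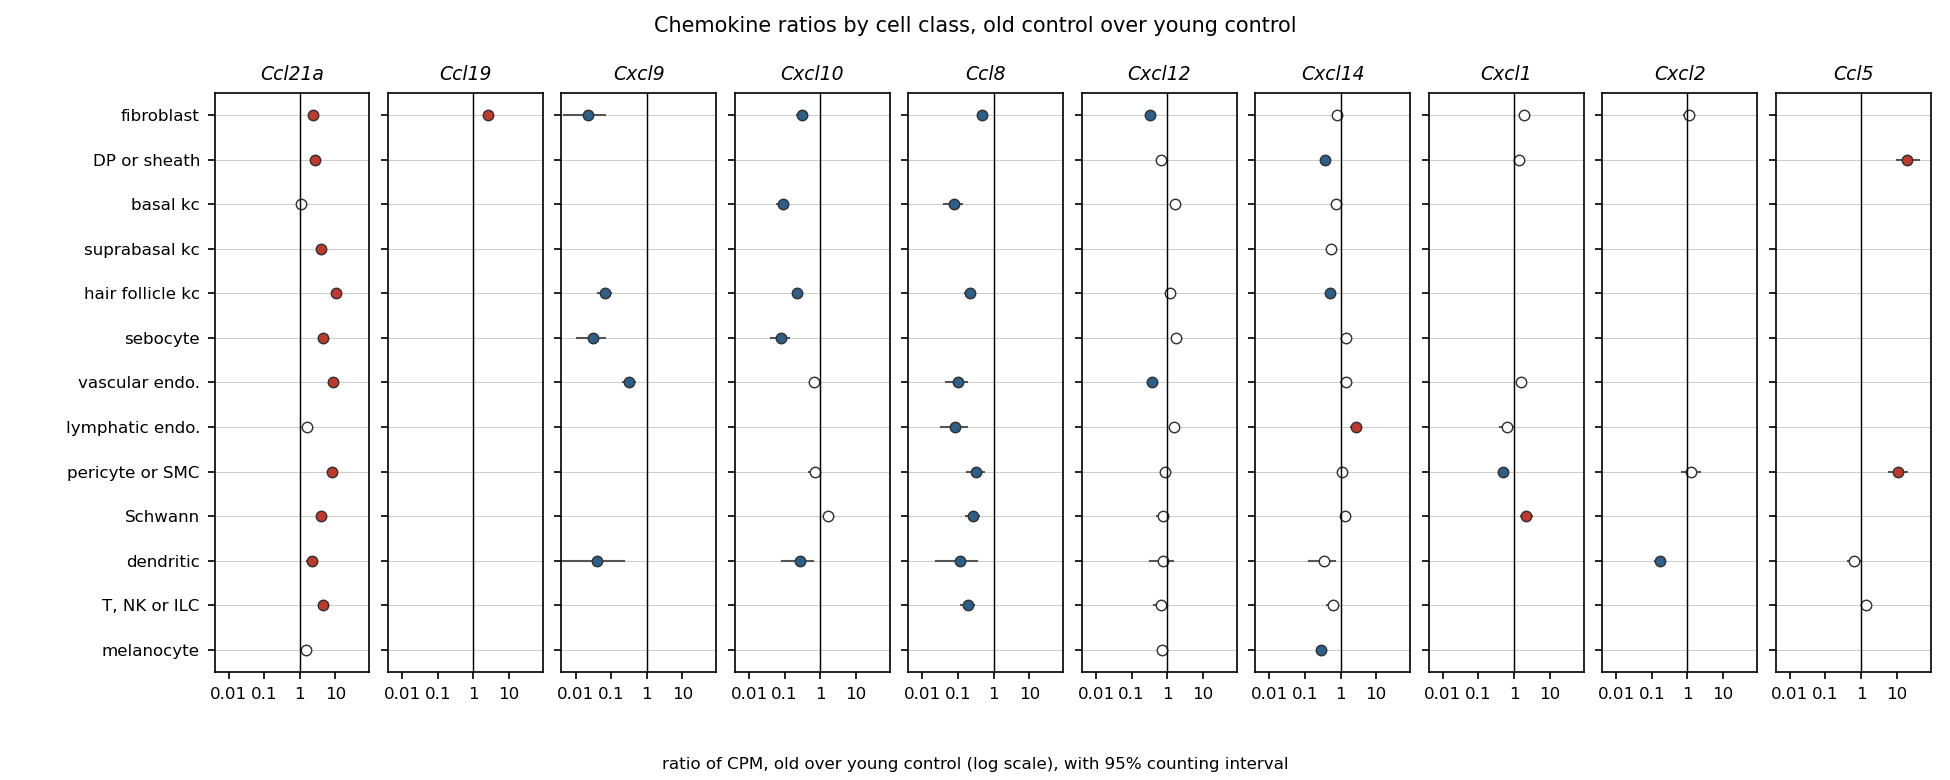
Ratio of CPM, old control over young control (log axis), for 10 ligands in 13 cell classes, with 95% counting intervals; red points rose, blue points fell, open points did not pass the size rule, and no point is drawn where the mean was under 20 CPM. Ccl8 and Cxcl9 lie left of 1 wherever they are drawn, Cxcl10 everywhere but in Schwann-like cells, and Ccl21a lies right of 1, furthest in hair follicle keratinocyte-like cells (10.4).

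Cxcl9 and Cxcl10 each fell in 5 classes of the old control. Cxcl9 fell to 1.38 CPM in old fibroblast-like cells against 60.8 CPM in the young control (0.0227 [0.00467, 0.0666]), and to 28.3 against 88.1 CPM in vascular endothelial-like cells (0.321 [0.215, 0.466]; 0.656 with cluster weights of the young control). It also fell in hair follicle keratinocyte-like (0.0654 [0.0423, 0.0969]), sebocyte-like (0.0301 [0.0109, 0.0666]) and dendritic or Langerhans-like cells (0.0402 [0.00101, 0.227]). In vascular cluster 28, led by Fabp4 and Selp, Cxcl9 had 15.7 CPM in the old control (232 cells) and 230 CPM in the young control (67 cells), while in cluster 17 its levels of 63.2 and 70.1 CPM (115 and 562 cells) did not pass. In hair follicle and sebocyte-like cells 328 of 490 and 134 of 223 young control UMIs of Cxcl9 came from 1 cell each. Without the top cell of each library the ratios were 0.183 and 0.0618, at means under 20 CPM, so that both calls were lost. The dendritic and vascular calls of Cxcl9 were lost with thinning (0.231 and 0.481, with wide intervals). Cxcl10 fell to 8.25 CPM in old basal keratinocyte-like cells against 93.9 CPM (0.0879 [0.0612, 0.122]), and in fibroblast-like cells to 23.5 against 77.9 CPM (0.301 [0.223, 0.399]). Its other falls were in hair follicle keratinocyte-like (0.218 [0.179, 0.263]), sebocyte-like (0.0770 [0.0403, 0.135]) and dendritic or Langerhans-like cells (0.264 [0.0843, 0.630]). In sebocyte-like cells 95 of 189 young control UMIs of Cxcl10 lay in 1 cell, and the dendritic value rested on 5 old control UMIs. Without the top cell of each library both means were under 20 CPM and neither call held (ratios 0.143 and 0.139). In vascular endothelial-like and Schwann-like cells the ratios of Cxcl10 were 0.673 [0.519, 0.865] and 1.71 [1.29, 2.25], neither of which passed. Of 12 interferon response genes, 4 of 11 tested fell and 0 rose in vascular endothelial-like cells (among them Rsad2, Irf7 and Stat2, list median -0.93 beside -0.09), and in T/NK-like cells 4 of 6 fell (among them Gbp2, Irf9 and Irf1) and 1 rose (Isg15; median -1.40 beside -0.11). In basal keratinocyte-like cells 2 of 5 fell (among them Gbp2). With cluster weights of the young control the vascular ratios of Rsad2, Irf7 and Stat2 were 0.991, 0.955 and 0.809, against 0.305, 0.394 and 0.481 unweighted, and with free RNA subtracted Gbp2 and Irf9 no longer passed in T/NK-like cells.

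Ccl8 fell in 9 classes of the old control. In fibroblast-like cells it had 128 against 274 CPM (0.467 [0.412, 0.528]), and 24.8% [20.6, 29.4] of old against 52.7% [50.8, 54.7] of young control cells held a UMI. In vascular endothelial-like cells it had 8.85 against 91.2 CPM (0.0970 [0.0459, 0.182]). The other ratios lay between 0.0770 (basal keratinocyte-like) and 0.313 (pericyte or smooth muscle-like). In T/NK-like cells 3.05% of old and 24.0% of young control cells held a UMI. Macrophage-like cells, the highest class for Ccl8, numbered 27 in the old control and 185 in the young control, and their part in these falls was not tested. With free RNA subtracted the fibroblast-like ratio was 0.487 and passed, while the basal (0.0318) and hair follicle ratios (0.241) then lay at means under 20 CPM. The hair follicle call was also lost without the top cell (0.307), the pericyte call with thinning (0.555) and the T/NK-like call without clusters mostly of 1 library (0.414), and with cluster weights the fibroblast-like ratio was 0.536.

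Cxcl12 fell in both main sources. Vascular endothelial-like cells had 430 [393, 469.9] CPM in the old control against 1148 [1107, 1189.5] CPM in the young control (0.375 [0.340, 0.412]), and fibroblast-like cells had 223 against 666 CPM (0.336 [0.306, 0.368]). With clusters weighted as in the young control these ratios were 0.751 and 0.529, closer to 1. Within fibroblast cluster 16, led by Gpx3 and Dpt, Cxcl12 had 654 CPM in the old control (34 cells) and 1549 CPM in the young control (790 cells), a ratio of 0.422 [0.356, 0.498]. Without the clusters that came mostly from 1 library the fibroblast-like ratio was 0.987. Its receptor Cxcr4 also fell, with 63.9 against 172 CPM in T/NK-like cells (0.372 [0.293, 0.468]) and 25.1 against 79.7 CPM in dendritic or Langerhans-like cells (0.315 [0.161, 0.559]), the second of which no longer passed when thinned to 1500 UMIs.

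Ccl21a had 22622 CPM in old and 14088 CPM in young control lymphatic endothelial-like cells, a ratio of 1.61 [1.58, 1.63] that did not pass. In 10 other classes it rose, with ratios between 2.16 (dendritic or Langerhans-like) and 10.4 (hair follicle keratinocyte-like). Vascular endothelial-like cells had 737 against 83.5 CPM (8.82 [7.59, 10.3]). In hair follicle keratinocyte-like cells, which are not a known source, 38.9% [36.3, 41.6] of old and 19.2% [16.4, 22.4] of young control cells held a UMI (23.8% and 3.88% thinned). In vascular endothelial-like cells the thinned shares were 24.4% and 8.32%, so that the old control vascular share was close to that of a class that should lack the gene. With free RNA subtracted the vascular ratio was 10.8. Within vascular cluster 28 Ccl21a had 931 CPM in the old control and 30.4 CPM in the young control. The T/NK-like ratio of 4.42 [3.72, 5.26] rested on 1 cell with 289 of 346 old control UMIs and was 0.750 without the top cell of each library. The fibroblast-like ratio of 2.32 [1.96, 2.74], with 52 of 195 old control UMIs in 1 cell, was 1.79 without those cells, 1.74 with cluster weights and 1.40 with doublets kept, and did not pass. With cells of at least 1000 genes and at most 10% mitochondrial UMIs the rises in fibroblast-like (1.69), dermal papilla or sheath-like (1.65), suprabasal (1.44) and dendritic or Langerhans-like cells (1.93) did not pass. Ccl19, the other Ccr7 ligand, rose in fibroblast-like cells, with 70.9 against 27.7 CPM (2.56 [2.11, 3.08]). In cluster 3 it had 100.5 against 42.3 CPM (2.38 [1.93, 2.91]), but without clusters mostly of 1 library, of which cluster 3 is one, the class ratio turned to 0.735 at a mean under 20 CPM, and thinned it was 1.99.

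Cxcl14 fell in 3 classes of the old control. Hair follicle keratinocyte-like cells had 546 CPM in the old control against 1114 CPM in the young control (0.490 [0.472, 0.508]), cells of the dermal papilla or sheath-like class 103 against 291 CPM (0.354 [0.316, 0.395]) and melanocyte-like cells 232 against 798 CPM (0.291 [0.246, 0.342]). Within hair follicle cluster 4, led by Lhx2 and Tgm5, it had 675 against 1566 CPM. In basal keratinocyte-like cells the ratio was 0.720 [0.682, 0.759], which did not pass. It rose from a low level in lymphatic endothelial-like cells (68.7 against 25.2 CPM, ratio 2.72 [2.01, 3.68]). That call was lost with doublets kept (1.60), with thinning (1.70) and with the stricter cells (1.97), and the hair follicle ratio was 0.522 with the stricter cells and the melanocyte-like one 0.541 with thinning. Ccl27a, at 1812 and 2219 CPM in old and young control basal keratinocyte-like cells, rose in classes of low level: lymphatic endothelial-like (2.77 [2.33, 3.30]), pericyte or smooth muscle-like (2.49 [2.12, 2.92]) and dermal papilla or sheath-like cells (2.19 [1.92, 2.51]). The lymphatic ratio was 1.55 with doublets kept and the papilla one 1.90 with the stricter cells. Cxcl16 rose in suprabasal keratinocyte-like cells, with 87.7 against 40.1 CPM (2.19 [1.85, 2.58]; 1.87 and under the rule when thinned). Cx3cl1 fell in vascular endothelial-like cells (22.1 against 53.4 CPM, ratio 0.414 [0.259, 0.637]; 0.696 with cluster weights of the young control) and in basal keratinocyte-like cells (0.467 [0.359, 0.601]; 0.532 with TMM factors, which did not pass).

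Of the stromal inflammatory ligands, Cxcl1 and Ccl2 rose in Schwann-like cells of the old control, and Cxcl1 fell in its pericyte or smooth muscle-like cells. The Schwann-like level of Cxcl1 rose (66.7 against 30.1 CPM, ratio 2.21 [1.54, 3.19]) and the pericyte level fell (185 against 383 CPM, ratio 0.483 [0.401, 0.577]). The pericyte ratio turned to 1.26 with cluster weights of the young control, while the Schwann-like ratios of Cxcl1 were 1.46 with these weights and 1.71 with every cluster given its best class. In fibroblast-like cells Cxcl1 had 174 against 90.4 CPM (1.93 [1.71, 2.16]), just under the rule. Ccl2 rose in Schwann-like cells (81.2 against 30.1 CPM, ratio 2.69 [1.91, 3.82]), and its fibroblast-like ratio was 0.817 [0.721, 0.923]. Of the NF-kB response genes, 2 of 9 tested rose in old Schwann-like cells (Icam1 and Tnfaip3, median 0.53 beside -0.13, with weighted ratios of 2.01 and 1.83, and Icam1 no longer past the rule with free RNA subtracted). Their ratios were 3.09 and 2.89 within cluster 9, and 0.198 and 0.506 within cluster 22, where neither passed. Members of the list passed in other old control classes too, in both directions. For example, Tnfaip3 and Sod2 rose in dermal papilla or sheath-like cells (2.35 and 2.04), and Vcam1 fell in fibroblast-like cells (0.299). In dendritic or Langerhans-like cells Il1b and Relb rose (2.38 and 2.27) and Il6 fell (0.201). Ccl11 had a fibroblast-like ratio of 1.41 [1.34, 1.49] and rose in vascular endothelial-like cells (57.5 against 26.7 CPM, ratio 2.15 [1.51, 3.06]), where it turned to 0.647 with cluster weights. The lymphocyte ligands Ccl5 and Ccl4 rose in cells that are no known source: Ccl5 in dermal papilla or sheath-like (51.3 against 2.59 CPM) and pericyte or smooth muscle-like cells (81.5 against 7.55 CPM), and Ccl4 in the same pericyte class (160.4 against 8.96 CPM). Another lymphocyte gene, Xcl1, moved with them in the pericyte class (69.8 against 1.42 CPM), and the part of lymphocyte RNA in these rises was not tested. In T/NK-like cells Ccl5 and Ccl4 had ratios of 1.41 [1.33, 1.48] and 1.33 [1.19, 1.47].

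Receptors lay on T/NK-like and myeloid cells in every library in which those classes were large enough. Cxcr6, the receptor of Cxcl16 on tissue-resident T cells, had in T/NK-like cells 354 [292, 425] CPM in the knockout, 538 [499.6, 579] in the old control and 419 [398, 440.3] in the young control. Ccr2 had 174 CPM in the knockout, 82.0 in the old control and 191 in the young control. Cx3cr1 had 149 CPM in the knockout, 121 in the old control and 89.9 in the young control in these cells, although its locus spans other genes and its reads are uncertain. Ccr8 and Ccr4 stayed at or below 20.7 CPM. In dendritic or Langerhans-like cells Ccr2 had 218 CPM in the old control and 501 in the young control. Ccr7, which takes dendritic cells to lymph nodes, had 285 CPM in the old control and 119.7 in the young control.

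**Figure D5:**
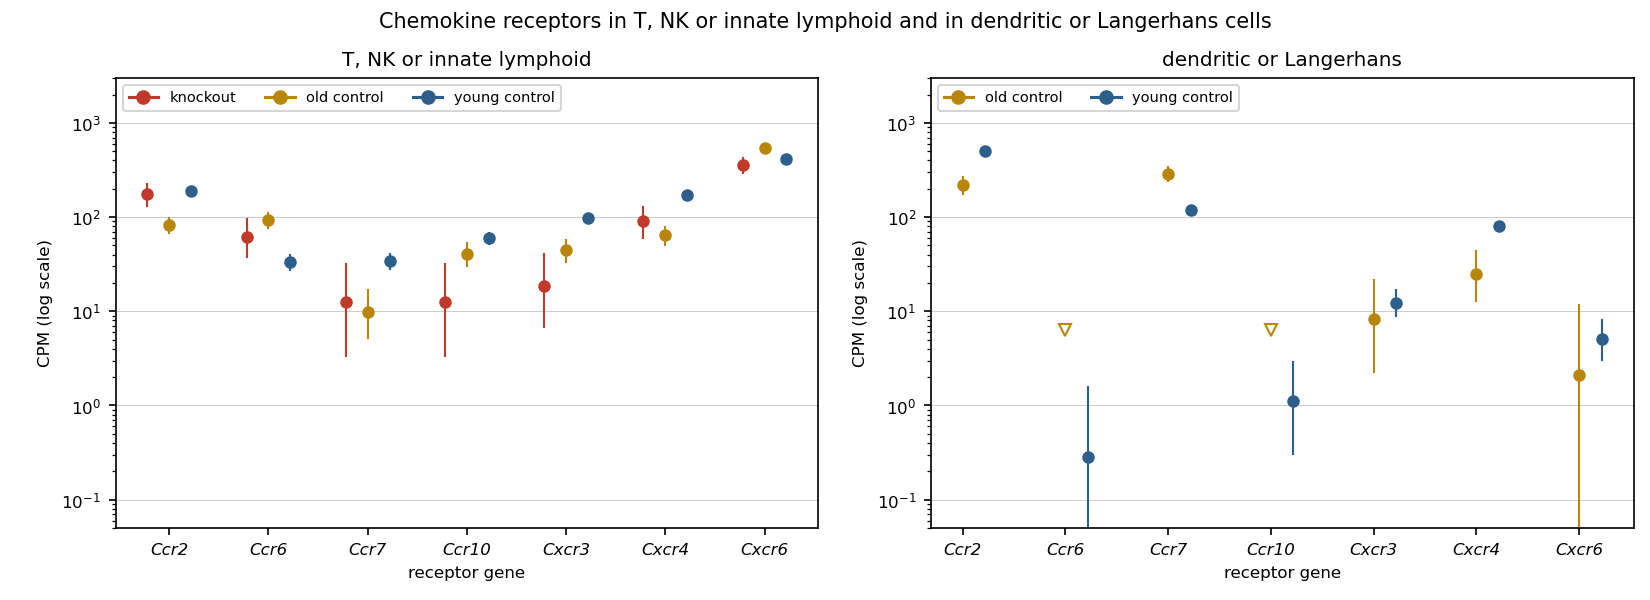
CPM (log axis) of 7 chemokine receptors in the T/NK-like class of the knockout, old control and young control (left) and in dendritic or Langerhans-like cells of both controls (right), with 95% counting intervals; triangles mark the limit of 3 UMIs where none was counted. In T/NK-like cells Cxcr3 is lowest in the knockout (18.6 CPM) and highest in the young control (96.7 CPM), and in dendritic-like cells Ccr7 is above and Ccr2 below the young control in the old control.

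In old T/NK-like cells Ccr7, Ccr2, Cxcr3 and Cxcr4 fell and Ccr6 rose. Ccr7 had 9.77 CPM in the old control against 33.8 CPM in the young control (0.289 [0.150, 0.513]), Ccr2 had a ratio of 0.428 [0.347, 0.525] and Cxcr3 one of 0.459 [0.342, 0.606]. Ccr6 rose, with 93.2 against 33.2 CPM (2.80 [2.17, 3.63]), but turned to 0.706 with every cluster given its best class. The class held 166 cells of cluster 7 and 129 of cluster 26 in the old control, against 1012 and 173 in the young control, and with the young control's weights the ratios of Ccr2, Cxcr3 and Cxcr4 were 0.650, 0.691 and 0.563, no longer at or below 0.5. Within cluster 7 the fall of Ccr7 (10.8 against 38.0 CPM) and the rise of Ccr6 (167 against 39.0 CPM) passed the rule. In the same cluster Ccl5 rose to 2901 against 1349.8 CPM (2.15 [2.04, 2.26]) and Ccl4 to 717 against 349 CPM (2.05 [1.85, 2.28]). Over the whole class neither ligand passed. Without clusters mostly of 1 library, or thinned, the fall of Ccr7 no longer passed.

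Dendritic or Langerhans-like cells of the old control numbered 75, against 546 in the young control. All of them lay in cluster 18, led by Lyz2, Cd74 and H2-Aa, and the cluster led by Cd207 was not part of the class. Cxcl2 fell to 109 CPM against 659 CPM (0.165 [0.123, 0.217]), Ccl6 to 182 against 615 CPM (0.296 [0.236, 0.367]) and Ccl9 to 224 against 558 CPM (0.401 [0.327, 0.488]). The receptor Ccr2 (0.435 [0.353, 0.530]) fell as well. Ccr7 passed the rule as higher (2.38 [1.95, 2.89]), but 5 of the 75 old control cells held all 136 UMIs, and after thinning to 1500 UMIs the ratio was 0.764 and without the top cell of each library 1.58. Ccl22 passed as higher (2.05 [1.71, 2.44]) with 114 of 162 old control UMIs in 1 cell, and was 1.12 without the cell with most UMIs in each library. Ccr7 and Ccl22 were also seen in cluster 20, an unnamed cluster led by the Langerhans cell gene Cd207, where Ccr7 had 82.5 CPM in the old control (328 cells) and 6.98 CPM in the young control (133 cells), and Ccl22 55.6 and 3.67 CPM.

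Clusters 0 and 31, both unnamed, carried further members. Cluster 0, led by the immunoglobulin genes Igkc and Igha and by Cd3g, held 3376 old control cells and had 874 CPM of Ccl27a, 609.9 CPM of Ccl21a and 170.2 CPM of Ccl5, ligands of keratinocytes, lymphatic vessels and T cells side by side. Cluster 31, led by the proliferation gene Mki67 and by Cenpf, had 91.9 CPM of Ccl20 in the old control (146 cells) and 0 UMIs in the young control (103 cells), and Cxcl14 there had 248 and 543 CPM.

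Related genes outside the symbol pattern were read beside the module. Xcl1, a lymphocyte ligand of Xcr1, had 1488 CPM in the knockout, 1235 in the old control and 334 in the young control T/NK-like cells, and passed as higher in both comparisons. It is among the leading genes of cluster 26, which held 35 of 74 knockout, 129 of 295 old control and 173 of 1185 young control cells of the class. Within cluster 7 Xcl1 had 1424 CPM in the knockout, 253 in the old control and 182 in the young control, and within cluster 26 1573, 2477 and 1215 CPM. With cluster weights of the young control the knockout ratio was 4.32 and the old control ratio 1.74, the second under the size of the rule. Its receptor Xcr1, a marker of cross-presenting dendritic cells, had 81.6 CPM in old and 109.6 CPM in young control dendritic or Langerhans-like cells. Ackr1, a scavenging receptor of venules, had 72.9 CPM in the knockout, 406 in the old control and 91.9 in the young control vascular endothelial-like cells. The old control value passed as higher (4.42), but cluster 28, where the gene is high, held 232 of 347 old and 67 of 629 young control vascular cells. Within cluster 28 Ackr1 had 549.6 CPM in the old control and 758 CPM in the young control, a ratio of 0.726 [0.617, 0.855], and with cluster weights of the young control the class ratio turned to 0.771. Ackr2, a scavenger of lymphatic vessels, had 169, 136 and 159.6 CPM in lymphatic endothelial-like cells of the knockout, old control and young control. Ackr3, which takes up Cxcl12, had 314, 145 and 223 CPM there. Of 8 genes for chemokine-binding proteoglycans and a chemokine-trimming peptidase, Sdc4, Dcn and Bgn rose in old vascular endothelial-like cells (3 of 5 tested, beside 9.25% of all genes tested), and Gpc1 and Sdc4 rose in knockout fibroblast-like cells (2 of 8, beside 9.67%). With cluster weights of the young control the ratios were 2.84, 1.44 and 1.08 in the old vascular and 2.87 and 1.64 in the knockout fibroblast-like class, so that Dcn and Bgn in the first and Sdc4 in the second no longer reached the size of the rule. Members of this list also passed in other classes, in both directions: in old T/NK-like cells, for example, Dcn and Bgn had ratios of 0.419 and 0.442.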

How the data were processed

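Single-cell RNA-seq of dorsal skin gave 1 library per group. The values are raw UMI counts per gene and barcode, deposited by the authors as 10x matrices; the file headers name Cell Ranger 3.1.0. The submitters' processing notes name mm10 and Seurat 3.1.5. Strand settings of the counting are not given in the sources used here.

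A barcode was kept as a cell from 500 genes and 1000 UMIs upward if mitochondrial UMIs made up no more than 15%. Scrublet's automatic cut marked 0, 1 and 330 cells in the knockout, old control and young control, so the top 8% of its scores were removed from each library, a choice made after that result was seen. Clustering used 2000 variable genes without any module gene, 30 components, 20 neighbours and Leiden resolution 1 (scanpy 1.11.5, leidenalg 0.10.2, igraph 0.11.9, Python 3.11.15). A cluster was named when its marker score led the next class by 1.5 log2 units with at least 3 markers at 2-fold. That margin was set after the clusters were seen. UMIs were summed per class and library and divided by the sum. For cluster weights, the levels of the clusters of a class were averaged by each cluster's share in the young control. Only clusters of at least 10 cells entered. In the knockout fibroblast-like class, cluster 16 entered with 12 cells, against 790 of the 2549 young control cells. Intervals are exact (Poisson for CPM, Clopper-Pearson for shares, binomial split for ratios). Against 0 UMIs, a ratio was taken against 3 UMIs. Genes described at length reached 50 CPM in a class of at least 50 cells or passed the size rule; the rest are given by counts, with examples below that level (such as Ccl1, Ccl17, Ccl20, Ccl25, Cxcl5 and Cxcl13) chosen after their values were seen. The size rule was checked on counts simulated for 3 knockout classes. These were independent Poisson draws, the error that the intervals assume, so that the check cannot cover UMIs that lie together in 1 cell. Scaling alternatives used edgeR 4.0.16 (TMM) and DESeq2 1.42.0 (median of ratios) factors in R 4.3.3, with no test. Free RNA was estimated per library and gene as the lowest CPM over classes of at least 50 cells. Promoter windows come from RefSeq (GRCm38.p6) and gene positions from the mm10 GENCODE M21 annotation. The members and lists were chosen with earlier results of these data known. Some items are not reported here.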

Additional observations from a re-analysis of the deposited data

Results flagged for a closer look

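A gene was listed here when it passed the size rule as higher in one cell class and as lower in another under the same comparison. With 1 library per group, none of these differences between classes was tested. In the knockout over the young control, Cxcl10 had ratios of 3.33 in lymphatic endothelial-like and 0.151 in hair follicle keratinocyte-like cells, and the first rested on 18 knockout UMIs, 11 of them in 1 cell. Cxcl14 had ratios of 6.24 in Schwann-like and 0.134 in T/NK-like cells. The second rested on 2 knockout UMIs and did not pass with free RNA subtracted (0.444) or with every cluster given its best class (0.971). In the old control over the young control, Cxcl1 had ratios of 2.21 in Schwann-like and 0.483 in pericyte or smooth muscle-like cells; weighted by the clusters of the young control these were 1.46 and 1.26. Ccr7 had ratios of 2.38 in dendritic or Langerhans-like cells, where 5 old control cells held its UMIs, and 0.289 in T/NK-like cells. Cxcl14 had ratios of 2.72 in lymphatic endothelial-like and 0.291 in melanocyte-like cells, or 1.70 and 0.541 when thinned to 1500 UMIs, where neither passed.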

How the results depend on the processing

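Of 107 gene-by-class entries that passed the size rule, TMM factors and median-of-ratios factors each kept 104 past it in the same direction, retained doublets 94, subtracted free RNA 95, every cluster given its best class 97, and removal of the top cell 87. Thinning to 1500 UMIs kept 65 of 104, cells with at least 1000 genes and at most 10% mitochondrial UMIs 77 of 94, and removal of clusters mostly of 1 library 68 of 80. The 19 entries higher in the knockout became 12 with the stricter cells (4 classes left), 12 with thinning (6 classes) and 40 with every cluster given its best class (9 classes), and the 25 lower ones became 13 with thinning. The 25 entries higher in the old control became 44 at a mean of at least 5 CPM and 48 with no minimum, since more genes were tested, and the 38 lower ones became 76 with no minimum and 19 without clusters mostly of 1 library. The genes with the same highest class in all 3 libraries, 19 of 22, became 10 of 12 with the stricter cells and 10 of 14 without clusters mostly of 1 library.

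Ratios turned direction for Ccr7 in old dendritic or Langerhans-like cells with thinning (0.764), for Cxcl12 in knockout Schwann-like cells (2.53) and Ccr6 in old T/NK-like cells (0.706) with every cluster given its best class, for Ccl27a in knockout fibroblast-like (1.06) and lymphatic endothelial-like cells (2.40) with free RNA subtracted, and for Ccl19 in old fibroblast-like cells without clusters mostly of 1 library (0.735). Cluster weights of the young control, chosen after seeing the data, turned Cxcl2 in knockout fibroblast-like (0.65), Ccl11 in old vascular endothelial-like (0.647) and Cxcl1 in old pericyte or smooth muscle-like cells (1.26), and of the genes outside the module Nfkbiz in knockout pericyte or smooth muscle-like (1.03) and Ackr1 (0.771) and Csf3 (0.517) in old vascular endothelial-like cells. Removal of the top cell, also chosen after seeing the data, turned Ccl21a in old T/NK-like cells (0.75). Beyond the numbers of genes tested, cells left and the single cell removed, the causes were not tested. No paired analysis was possible because each group has 1 library.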
